A study of Sus scrofa with 27 samples.

Results

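Genes that move salt and water across the alveolar wall were followed in pig lungs kept on ex vivo lung perfusion (EVLP), a procedure in which a lung removed from the donor is ventilated and perfused outside the body. The 9 genes were SCNN1A, SCNN1B and SCNN1G (subunits of the epithelial sodium channel, ENaC), ATP1B1 (a beta subunit of the sodium pump), CFTR (a chloride channel) and the water channels AQP1, AQP3, AQP4 and AQP5. They were chosen by gene name from the table of read counts, which holds 31908 genes in 27 libraries. A row with the name was present for 8 of the 9 genes, and none of these had fewer than 68 counts in any library. The row of AQP1 carries an Ensembl identifier but no name. AQP1 was therefore matched by that identifier, is described on its own and is left out of the member counts.

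The lungs came from Large White pigs by a non-heart-beating donor procedure and had passed through cold ischemia before perfusion. Age and sex were not given in the sources used here. In both groups the circuit held Steen solution with methylprednisolone (a glucocorticoid), cefuroxime (an antibiotic) and heparin. In the Gold Standard group (GS, 5 pigs) part of the perfusate was replaced at intervals. In the Pediatric Dialysis group (PD, 4 pigs) a hemodialysis circuit with a pediatric membrane ran on the perfusate instead. A lung biopsy of each pig was sequenced before perfusion (0h) and after 6h and 12h, so each change from 0h is a change within a pig, and every biopsy is a mixture of all lung cells.

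The alveolar surface is kept nearly dry by active sodium transport. Sodium enters alveolar epithelial cells at the air side, in large part through ENaC, and is pumped out at the blood side by the sodium-potassium ATPase; chloride follows, and water follows the salt. The classical ENaC is built of an alpha, a beta and a gamma subunit, encoded by SCNN1A, SCNN1B and SCNN1G, and the alpha subunit is the one required for a working channel. Aquaporins are pores that let water, and for some of them glycerol, cross the membrane. In the mammalian lung AQP5 marks the apical face of alveolar type 1 cells, AQP1 the capillary endothelium, and AQP3 and AQP4 mostly the basolateral face of airway epithelium.

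Total counts per library were 26335584 to 67522703 in GS and 14650700 to 21820935 in PD, without overlap. Group, depth and anything else that differed between the sets of libraries therefore cannot be told apart wherever PD and GS levels are compared. Summed markers of alveolar type 1 cells were present in every library (1052 to 2457 CPM at 0h; CPM are counts scaled to the library's size). Markers of alveolar type 2 cells summed to 7894 to 10562 CPM in GS and 27167 to 79001 CPM in PD at 0h. Such a sum is carried by the most counted markers, and the list was split. Of 7 markers tested at 0h, 2 were called higher in PD and 1 lower by the rule given below. Their log2 differences ran from -1.35 to 3.56, with a median of 0.64, where 29.1% of all genes were called. The 12h library of PD pig 2 stands apart from the rest. Its mean correlation with the other PD libraries was 0.771, the lowest in the group, and its mitochondrial share was 1.65%, also the lowest. It held 90667 CPM of alveolar type 2 markers, 6882 CPM of airway secretory markers and 371 CPM of erythrocyte markers, against at most 26636, 3587 and 23.0 CPM in the other PD libraries at 12h. The main PD values at 12h are given with and without this library. The 0h library of PD pig 4 was the next lowest, with a mean correlation of 0.799. It had the highest share of counts on ribosomal RNA (2.12%) and in its 10 most counted genes (18.2%). The ribosomal RNA share is here that of all genes on a scaffold taken to hold ribosomal RNA. The PD calls of members are given without the 0h library of pig 4 too. In GS, pigs 9 and 17 had 26335584 to 41802541 counts per library and pigs 44, 55 and 77 had 51708598 to 67522703.

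SCNN1A was the member called higher at 12h in both groups with all libraries. It lies at chr5:64285015-64313612 on the plus strand of Sscrofa11.1. In GS its level at 0h was 96.2, 71.5, 130, 98.4 and 142 CPM in pigs 9, 17, 44, 55 and 77. At 6h the same pigs had 206, 163, 235, 168 and 191 CPM, and at 12h 227, 220, 289, 235 and 249 CPM. Every GS library at 6h and at 12h lay above every GS library at 0h. In PD the levels at 0h were 50.1, 61.1, 69.1 and 50.3 CPM in pigs 2, 3, 4 and 5. They were 41.0, 116, 139 and 97.3 CPM at 6h, and 88.6, 286, 211 and 128 CPM at 12h. PD pig 2 was the only PD pig that was lower at 6h than at 0h, and all 4 PD libraries at 12h lay above those at 0h.

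A gene was called when its adjusted p in edgeR's quasi-likelihood test, with the pig as a block, was under 0.05 (Benjamini-Hochberg over all genes tested) and its fold change was at least 2. In GS, SCNN1A was higher by 0.85 on the log2 scale at 6h (SE 0.13, edgeR adjusted p = 0.000775), which passed the p threshold but was less than 2-fold. At 12h it was called, with a log2 fold change of 1.17 (SE 0.13, edgeR adjusted p = 8.14e-05), and was higher in 5 of 5 pigs. In PD the log2 fold change was 0.64 at 6h (SE 0.34, edgeR adjusted p = 0.582), in 3 of 4 pigs. At 12h it was 1.48 (SE 0.34, edgeR adjusted p = 0.0325), in 4 of 4 pigs, and was called. Without the 12h library of PD pig 2 it was 1.57 (edgeR adjusted p = 0.00879). Without the 0h library of PD pig 4 it was 1.46 (edgeR adjusted p = 0.0671) and was not called. Without pig 3, 4 or 5 the log2 fold change was 1.22, 1.47 or 1.52 with an edgeR adjusted p of 0.286, 0.0916 or 0.283. This was not particular to SCNN1A, since edgeR called 0% of all genes in PD at 12h without pig 3 or pig 5 (13.4% and 12.1% had an unadjusted p under 0.05) and 2.55% without pig 4. The ribosomal RNA share moved with time in PD, from 0.426 to 2.12% at 0h to 0.201 to 0.330% at 6h and, apart from pig 2, 0.0886 to 0.350% at 12h. Erythrocyte markers did so too, from 62.1 to 240 CPM at 0h to 8.73 to 23.0 CPM at 12h apart from pig 2, and so did neutrophil markers, from 661 to 1285 CPM to 276 to 564 CPM. The part of these in the PD changes was not tested. In GS the log2 change of SCNN1A within a pig at 12h was 1.24 and 1.62 in the 2 pigs with shallower libraries and 0.81 to 1.26 in the 3 with deeper ones.

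**Figure D1:**
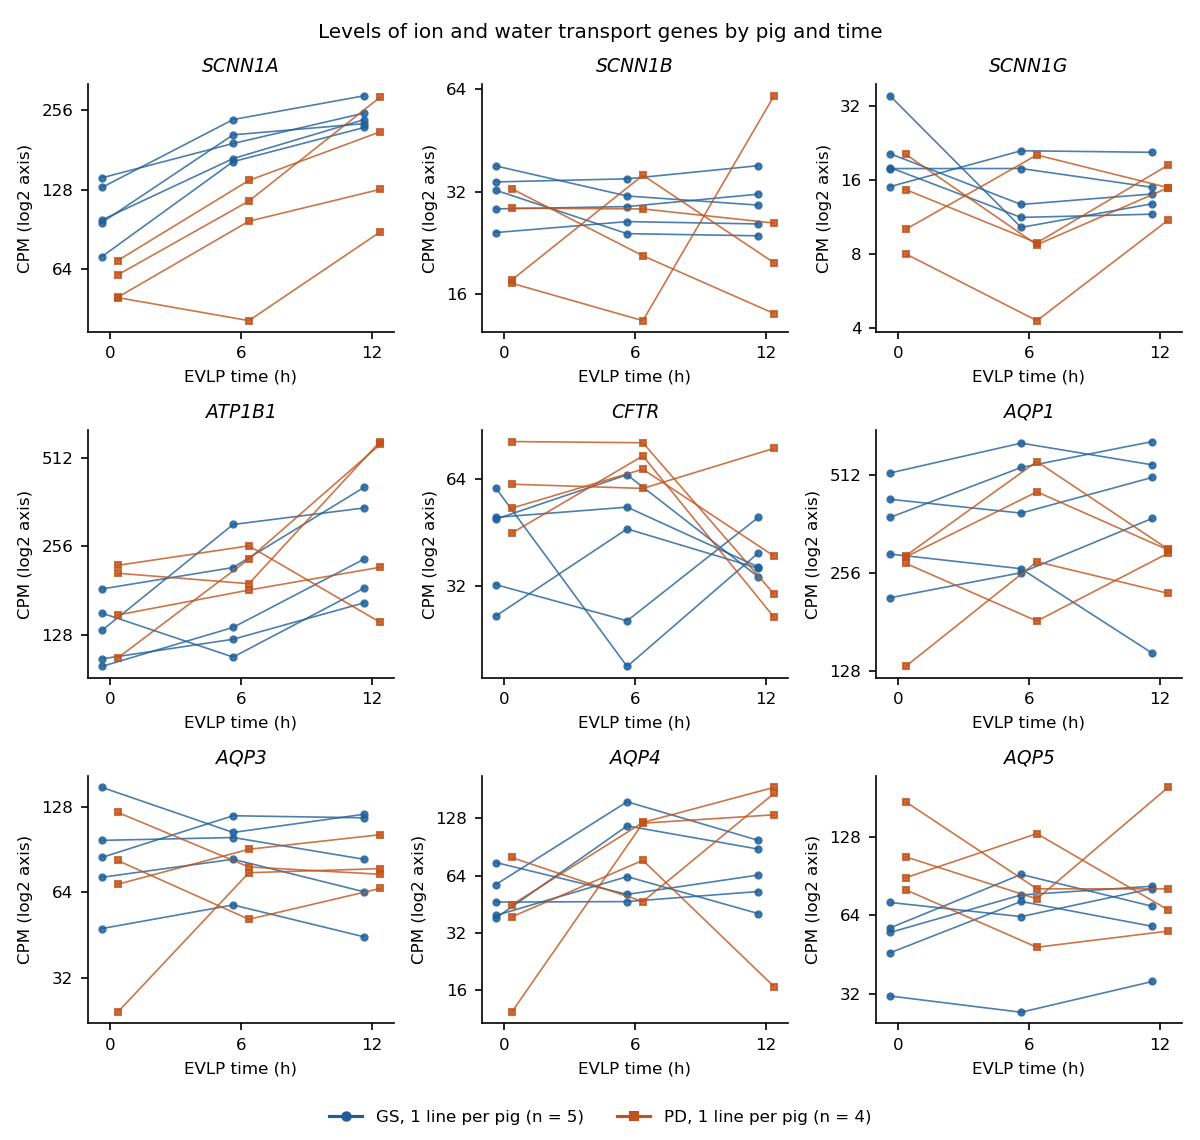
Level of each gene in CPM (log2 axis) against EVLP time, with 1 line per pig and the groups set slightly apart on the time axis. SCNN1A runs upward in every GS pig, from 71.5 to 142 CPM at 0h to 220 to 289 CPM at 12h, and the GS ranges at 0h and 12h do not overlap.

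Neither partner subunit was called at 6h or 12h in either group. SCNN1B, at chr3:22832262-22902063 on the minus strand, had 32.4, 24.3, 34.2, 38.1 and 28.5 CPM at 0h in GS pigs 9, 17, 44, 55 and 77, and 23.8, 25.8, 38.2, 29.3 and 31.5 CPM at 12h. Its log2 fold change at 12h was -0.12 in GS (SE 0.12, edgeR adjusted p = 0.441). In PD it was 17.3, 28.7, 32.7 and 17.6 CPM at 0h in pigs 2, 3, 4 and 5 and 61.3, 25.9, 14.1 and 19.8 CPM at 12h. The high value is that of the library that stands apart. The PD log2 fold change of SCNN1B was 0.24 with that library (edgeR adjusted p = 0.832) and -0.52 without it (edgeR adjusted p = 0.309).

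SCNN1G, at chr3:22977947-23013384 on the minus strand, is the least counted member, with 4.30 to 35.2 CPM over all libraries. In GS it had 17.8, 15.0, 35.2, 20.5 and 18.001 CPM at 0h and 15.0, 20.7, 12.8, 14.1 and 11.6 CPM at 12h, lower in 4 of 5 pigs. The log2 fold change was -0.58 at 6h and -0.58 at 12h (SE 0.26 and 0.25, edgeR adjusted p = 0.103 and 0.0842), so neither passed. Without GS pig 44, which had the highest level at 0h, they were -0.25 and -0.30, and without pig 17 -0.82 and -0.79 (edgeR adjusted p = 0.0313 and 0.0298), less than 2-fold. Within pigs the change at 12h was -1.45 to -0.54 in the 3 GS pigs with deeper libraries and -0.25 and 0.46 in the 2 with shallower ones. In PD, SCNN1G had 8.03, 14.6, 20.4 and 10.1 CPM at 0h and 11.0, 18.4, 14.9 and 14.9 CPM at 12h in pigs 2, 3, 4 and 5, higher in 3 of 4. Its PD log2 fold change was -0.44 at 6h and 0.18 at 12h (edgeR adjusted p = 0.720 and 0.830), and -0.0043 at 12h without the library that stands apart (edgeR adjusted p = 0.995).

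Because the 3 subunits are read from the same library, the ratio of their counts does not depend on how libraries are scaled. The ratio of SCNN1A to SCNN1B counts was 2.58 to 4.97 at 0h, 5.39 to 8.54 at 6h and 7.57 to 9.55 at 12h in GS. It was higher than at 0h in 5 of 5 GS pigs at both times, by a median of 2.09-fold at 6h and 2.90-fold at 12h. In PD it was higher in 3 of 4 pigs at both times, by a median of 1.48-fold and 3.72-fold. PD pig 2 went the other way at 12h, from 2.91 to 1.45, and the median of the other 3 PD pigs was 5.17-fold. The ratio of SCNN1A to SCNN1G counts was higher in 5 of 5 GS pigs at both times (medians 2.15-fold and 2.81-fold), and in 3 of 4 PD pigs at 6h and 4 of 4 at 12h (2.33-fold and 2.72-fold, or 3.72-fold at 12h without pig 2). The ratio of SCNN1B to SCNN1G counts was higher in 3 of 5 GS pigs at both times. In PD it was higher in 4 of 4 pigs at 6h, by 1.01- to 1.64-fold, and in 1 of 4 at 12h. The ratios were formed after the levels had been seen and are given without a test. A count ratio also depends on transcript length, so only its change over time can be read.

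**Figure D2:**
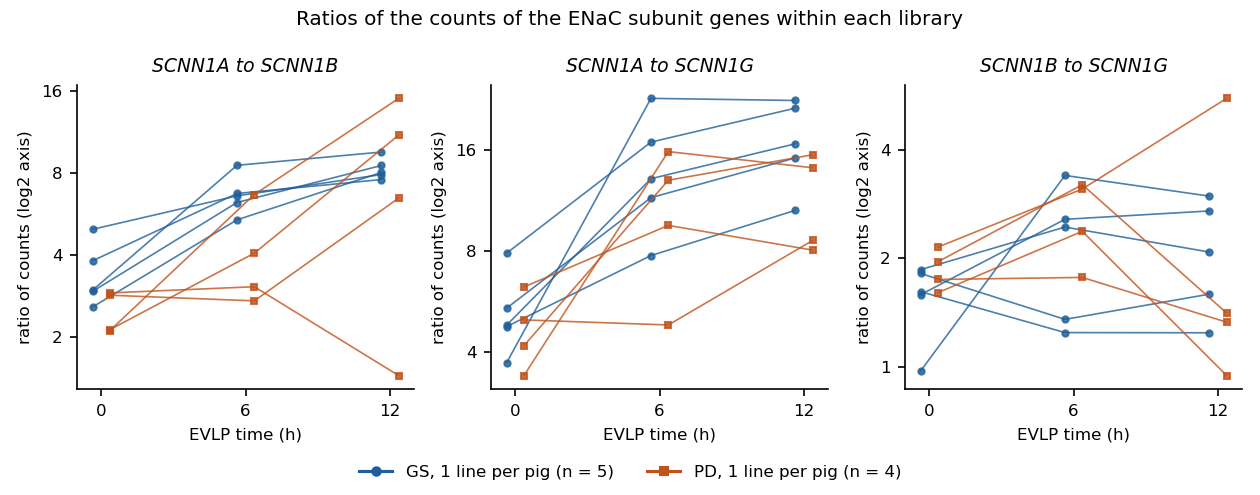
Ratio of the read counts of pairs of ENaC subunit genes (log2 axis) against EVLP time, with 1 line per pig and the groups set slightly apart on the time axis. SCNN1A to SCNN1B goes from 2.58 to 4.97 at 0h to 7.57 to 9.55 at 12h in GS, while SCNN1B to SCNN1G is higher than at 0h in 3 of 5 GS pigs at both times and in 4 of 4 PD pigs at 6h and 1 of 4 at 12h.

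The DNA just before the annotated start is shown for the subunit that rose and for a partner that did not, as the 250 bases before the gene start of the count table, read 5′ to 3′ on the gene's strand from the RefSeq copy of Sscrofa11.1. Bases of AGAACA or its reverse complement TGTTCT (the hexamer of a glucocorticoid receptor site) and of the palindrome TGACGTCA (the cAMP response element) would be in capitals, on either strand; the motifs do not overlap one another, and neither window holds them. The SCNN1A window is chr5:64284765-64285014, and the SCNN1G window is chr3:23013385-23013634, complemented.
SCNN1A: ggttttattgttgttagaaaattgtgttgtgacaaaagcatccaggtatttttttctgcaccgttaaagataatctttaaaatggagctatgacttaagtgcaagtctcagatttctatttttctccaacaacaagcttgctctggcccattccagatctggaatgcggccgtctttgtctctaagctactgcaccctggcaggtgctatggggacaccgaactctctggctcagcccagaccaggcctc
SCNN1G: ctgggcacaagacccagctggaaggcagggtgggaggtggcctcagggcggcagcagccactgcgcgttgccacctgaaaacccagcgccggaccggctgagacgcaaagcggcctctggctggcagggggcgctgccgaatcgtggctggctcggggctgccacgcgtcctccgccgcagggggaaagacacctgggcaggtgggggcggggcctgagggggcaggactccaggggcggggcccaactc
The first holds 44.8% G and C and the second 72.8%, against a median of 58% over 20273 windows of protein-coding genes. AGAACA was found in 11.1% of those windows and TGACGTCA in 1.77%. Neither was found in the window of any of the 9 genes, which says only that these letters are absent there. The windows follow the gene starts of the count table, and RefSeq starts only SCNN1G at the same base. It starts SCNN1A 2514 and ATP1B1 60699 bases further downstream, and AQP1, AQP3 and AQP5 5, 129 and 120 bases downstream. It starts AQP4 inside its window, and SCNN1B and CFTR upstream of theirs, which is why the SCNN1B window is not printed.

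ATP1B1 encodes the beta subunit that carries the sodium pump to the membrane and lies at chr4:81911558-81997714 on the minus strand. In GS it had 183, 132, 99.7, 106 and 152 CPM at 0h in pigs 9, 17, 44, 55 and 77, 217, 304, 135, 123 and 107 CPM at 6h, and 407, 346, 232, 164 and 184 CPM at 12h. All 5 pigs were higher at 12h than at 0h, but the ranges overlap. The log2 fold change at 12h was 0.87 (SE 0.19, edgeR adjusted p = 0.00384), which passed the p threshold and was less than 2-fold; without GS pig 77 it was 1.06 and was called. At 6h it was 0.30 (edgeR adjusted p = 0.266).

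In PD, ATP1B1 had 220, 207, 107 and 149 CPM at 0h and 141, 582, 569 and 217 CPM at 12h in pigs 2, 3, 4 and 5. Pigs 3, 4 and 5 were higher at 12h and pig 2 was lower. The log2 fold change was 1.04 with all libraries (SE 0.47, edgeR adjusted p = 0.196) and was not called. Without the 12h library of pig 2 it was 1.45 (edgeR adjusted p = 0.0145) and was called, and without the 0h library of pig 4 it was 0.75 (edgeR adjusted p = 0.416).

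Further sodium pump genes were taken from a list of 9 pump subunits and FXYD proteins, the small regulators of the pump, of which 7 were found in the table and 6 were tested. In GS at 12h, 1 of the 6 was called higher and none lower, where 15.7% of all genes were called. It was ATP1B3, a further beta subunit, which had 44.7 to 86.9 CPM at 0h and 101 to 175 CPM at 12h in GS, without overlap, with a log2 fold change of 1.12 (SE 0.12, edgeR adjusted p = 8.23e-05). The median log2 fold change of the 6 was -0.12, against -0.076 over all genes tested. In PD, with all libraries, none of the 6 was called at either time. ATP1B3 was at 0.97 at 12h in PD (edgeR adjusted p = 0.115) and was higher in 4 of 4 pigs. Without the 12h library of PD pig 2 it was called, at 1.11 (edgeR adjusted p = 0.0280), and FXYD2 was called lower, at -1.94 (edgeR adjusted p = 0.0452), so that 1 of the 6 was called in each direction, where 26.2% of all genes were called in either.

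**Figure D3:**
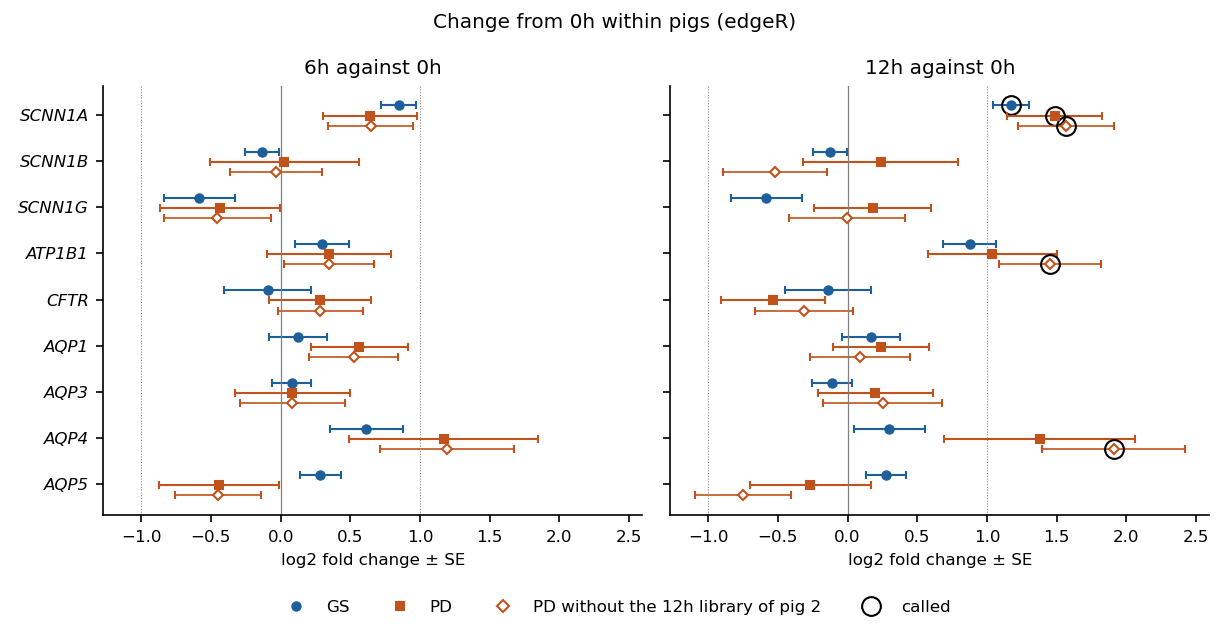
Log2 fold change from 0h with its SE, from edgeR, at 6h (left) and 12h (right), for GS, PD and PD without the 12h library of pig 2; black rings mark called values and dotted lines mark 2-fold. At 12h SCNN1A is ringed in GS (1.17) and PD (1.48), and ATP1B1 and AQP4 are ringed in PD only once that library is left out (1.45 and 1.91).

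CFTR, the cAMP-gated chloride channel of epithelium at chr18:28627728-28817950 on the minus strand, was not called in either group. In GS it had 50.03, 49.5, 32.4, 26.4 and 60.5 CPM at 0h, 53.5, 65.9, 25.6, 46.4 and 19.0 CPM at 6h and 36.3, 34.0, 50.03, 36.0 and 39.7 CPM at 12h in pigs 9, 17, 44, 55 and 77. The pigs moved in both directions, and the log2 fold change was -0.092 at 6h and -0.14 at 12h (SE 0.31 for both, edgeR adjusted p = 0.852 and 0.733). In PD it had 81.8, 53.1, 62.0 and 45.2 CPM at 0h and 30.4, 38.9, 78.3 and 26.2 CPM at 12h, lower in 3 of 4 pigs, with a log2 fold change of -0.54 (SE 0.37, edgeR adjusted p = 0.407), or -0.31 without the 12h library of pig 2 (edgeR adjusted p = 0.521). Of 15 further genes of epithelial chloride, bicarbonate and potassium transport, 14 were tested in GS and 13 in PD. In GS at 12h 1 was called, where 15.7% of all genes were, and it was lower: SLC9A2, a sodium-proton exchanger, at -1.68 (SE 0.60, edgeR adjusted p = 0.0407), with no more than 20 counts in any library. No gene of that list was called in GS at 6h or, with all libraries, in PD at either time. Once the 12h library of PD pig 2 was left out, the PD test at 12h called 3 of its 13 genes, all higher, where 26.2% of all tested genes were called. They were SLC12A2, a sodium-potassium-chloride cotransporter, at 1.28 (edgeR adjusted p = 0.0160), SLC4A4, a sodium-bicarbonate cotransporter, at 1.46 (edgeR adjusted p = 0.0235), and KCNJ15, a potassium channel, at 1.25 (edgeR adjusted p = 0.0298).

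The aquaporins did not share a direction. AQP5, at chr5:15876407-15880067 on the plus strand, had 31.4, 71.7, 57.3, 55.04 and 46.0 CPM at 0h in GS and 35.7, 81.1, 69.4, 82.8 and 58.1 CPM at 12h. It was higher at 12h in 5 of 5 GS pigs by a log2 fold change of 0.28 (SE 0.15, edgeR adjusted p = 0.151), which did not pass. In PD it had 107, 89.2, 80.3 and 175 CPM at 0h and 198, 67.2, 55.7 and 80.9 CPM at 12h in pigs 2, 3, 4 and 5. Pigs 3, 4 and 5 were lower at 12h, and pig 2, in the library that stands apart, was higher. The PD log2 fold change was -0.27 with that library (edgeR adjusted p = 0.750) and -0.75 without it (edgeR adjusted p = 0.117), and was not called in either fit.

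AQP4, the basolateral water channel, lies at chr6:111400794-111422042 on the minus strand. Among the members it varied most between PD pigs on the log2 scale at 0h and 12h (SD 1.13 and 1.65). At 6h it did not (SD 0.65, against 0.91 for SCNN1G), and the 12h spread includes the library of pig 2 that stands apart. AQP4 had 38.9, 79.9, 45.0 and 12.3 CPM at 0h, 77.1, 46.8, 122 and 121 CPM at 6h and 16.7, 174, 187 and 134 CPM at 12h in pigs 2, 3, 4 and 5. Pigs 3, 4 and 5 at 12h lay above every PD library at 0h, and pig 2 lay far below them. The log2 fold change at 12h was 1.38 (SE 0.69, edgeR adjusted p = 0.243) with all libraries and 1.91 (edgeR adjusted p = 0.0180, called) without the 12h library of pig 2. In GS, AQP4 had 38.4 to 75.1 CPM at 0h, 46.8 to 157 CPM at 6h and 40.5 to 98.3 CPM at 12h. Its GS log2 fold change was 0.61 at 6h (SE 0.26, edgeR adjusted p = 0.0953) and 0.30 at 12h (edgeR adjusted p = 0.371). The 6h value was 0.92 without pig 44 (edgeR adjusted p = 0.0315, less than 2-fold) and 0.38 without pig 17 (edgeR adjusted p = 0.300). At 6h the GS pigs with shallower libraries, 9 and 17, had 157 and 117 CPM and the 3 with deeper ones 46.8 to 63.3 CPM.

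AQP3, which passes water and glycerol and lies at chr10:33045245-33051086 on the plus strand, had 47.6 to 150 CPM at 0h and 44.5 to 120 CPM at 12h in GS. Its log2 fold changes were 0.079 at 6h and -0.11 at 12h in GS and 0.084 and 0.20 in PD, with edgeR adjusted p of 0.708, 0.559, 0.945 and 0.808. AQP1, matched by identifier at chr18:42063481-42076746 on the minus strand, had 215 to 518 CPM at 0h and 145 to 646 CPM at 12h in GS. In PD it had 132 to 289 CPM at 0h and 222 to 303 CPM at 12h. Its log2 fold changes were 0.12 and 0.17 in GS and 0.56 and 0.24 in PD at 6h and 12h, with edgeR adjusted p of 0.689, 0.549, 0.623 and 0.721. The GS value at 12h was 0.48 without pig 9 (edgeR adjusted p = 0.0251, less than 2-fold) and 0.011 to 0.20 with any 1 of the other pigs left out. Within PD pigs the log2 change of AQP1 at 12h was 0.74 in pig 4 and 0.067 to 0.103 in pigs 2, 3 and 5. The PD values at 12h without the 12h library of pig 2 were 0.25 for AQP3 and 0.087 for AQP1 (edgeR adjusted p = 0.681 and 0.874). Without the 0h library of PD pig 4 AQP3 was at -0.28 at 6h and -0.15 at 12h (edgeR adjusted p = 0.9999 and 0.866). Neither water channel was called at any time.

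Of the 8 aquaporin genes outside the member list, 5 were tested in GS and 3 in PD, and AQP8 had no count in any of the 27 libraries. In GS 1 of 5 was called at 6h and 2 of 5 at 12h, all higher, where 11.1% and 15.7% of all genes were called. In PD at 12h 0 of 3 were called with all libraries and 1 of 3 without the 12h library of pig 2. Of all genes, 5.98% and 26.2% were called in these PD fits. AQP7, a pore for water and glycerol, was called in GS at 6h (log2 fold change 1.40, edgeR adjusted p = 0.0218) and at 12h (1.76, edgeR adjusted p = 0.00459), from levels of 0.0988 to 0.307 CPM at 0h and 0.298 to 1.60 CPM at 12h. At 6h AQP7 had 0.950 and 1.45 CPM in the GS pigs with shallower libraries and 0.137 to 0.509 CPM in the others, and at 12h 1.09 and 1.60 CPM against 0.298 to 0.540 CPM. AQP9, which passes water and small solutes and is known from leukocytes and liver, was called in GS at 12h at 1.50 (SE 0.47, edgeR adjusted p = 0.0221), higher in 4 of 5 pigs. Its log2 change at 12h was 2.86 and 3.47 in the 2 GS pigs with shallower libraries and -0.35 to 1.53 in the 3 with deeper ones. In PD, AQP9 was at 1.88 at 12h (edgeR adjusted p = 0.109), and at 2.38 (edgeR adjusted p = 0.0112, called) without the 12h library of pig 2. AQP11 was at -0.71 in GS at 12h (edgeR adjusted p = 0.0301), less than 2-fold, and is named after its value had been seen.

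Genes that regulate ENaC were taken from a list of 17, of which 15 were found and tested in both groups. SGK1, a kinase induced by corticosteroids that keeps ENaC at the cell surface, had 138 to 242 CPM at 0h, 214 to 995 CPM at 6h and 289 to 1324 CPM at 12h in GS. It was higher in 5 of 5 GS pigs at both times and was called, at 1.60 (SE 0.31, edgeR adjusted p = 0.00287) and 1.93 (SE 0.31, edgeR adjusted p = 0.000669). In PD, SGK1 had 27.5 to 157 CPM at 0h, 331 to 704 CPM at 6h and 245 to 615 CPM at 12h, without overlap between 0h and either later time. Its PD log2 fold change was 2.46 at 6h (edgeR adjusted p = 0.0945, not called) and 2.28 at 12h (SE 0.52, edgeR adjusted p = 0.0319, called), and 2.65 at 12h without the library of pig 2 that stands apart (edgeR adjusted p = 0.00497). NEDD4, a ubiquitin ligase of the family that removes ENaC from the membrane, had 55.1 to 68.1 CPM at 0h, 24.7 to 39.0 CPM at 6h and 17.6 to 43.1 CPM at 12h in GS. It was lower in 5 of 5 GS pigs at both times, by -0.93 at 6h (edgeR adjusted p = 0.00674, less than 2-fold) and -1.19 at 12h (SE 0.21, edgeR adjusted p = 0.00121, called). In PD, NEDD4 was at 0.35 at 6h and -0.72 at 12h (edgeR adjusted p = 0.773 and 0.367), and at -0.38 at 12h without the 12h library of pig 2 (edgeR adjusted p = 0.514).

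With all libraries the remaining 13 regulators were not called in any comparison with 0h. Among these was NEDD4L, of the same ligase family as NEDD4 and named after its values had been seen. The list thus had 1 of 15 called in GS at 6h, 2 of 15 in GS at 12h and 1 of 15 in PD at 12h, beside 11.1%, 15.7% and 5.98% of all genes. Without the 12h library of PD pig 2, NR3C1, the glucocorticoid receptor, was called in PD at 12h at 1.18 (edgeR adjusted p = 0.0266) and WNK1, a kinase that acts on ion transporters, at 1.61 (edgeR adjusted p = 0.0310), which with SGK1 made 3 of 15, all higher, where 26.2% of all genes were called. Those that passed the p threshold alone in GS, named after their values had been seen, were FURIN, a protease that cuts ENaC subunits, at 0.63 and 0.94 at 6h and 12h (edgeR adjusted p = 0.0164 and 0.00135), SPINT1, a protease inhibitor, at 0.47 and 0.57 (edgeR adjusted p = 0.0475 and 0.0160), and NR3C2, the mineralocorticoid receptor, at -0.77 and -0.80 (edgeR adjusted p = 0.0181 and 0.0108). The median log2 fold change of the 15 at 12h was 0.23 in GS and 0.17 in PD, against -0.076 and -0.048 over all genes tested, and without the 12h library of PD pig 2 that of PD was -0.35.

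**Figure D4:**
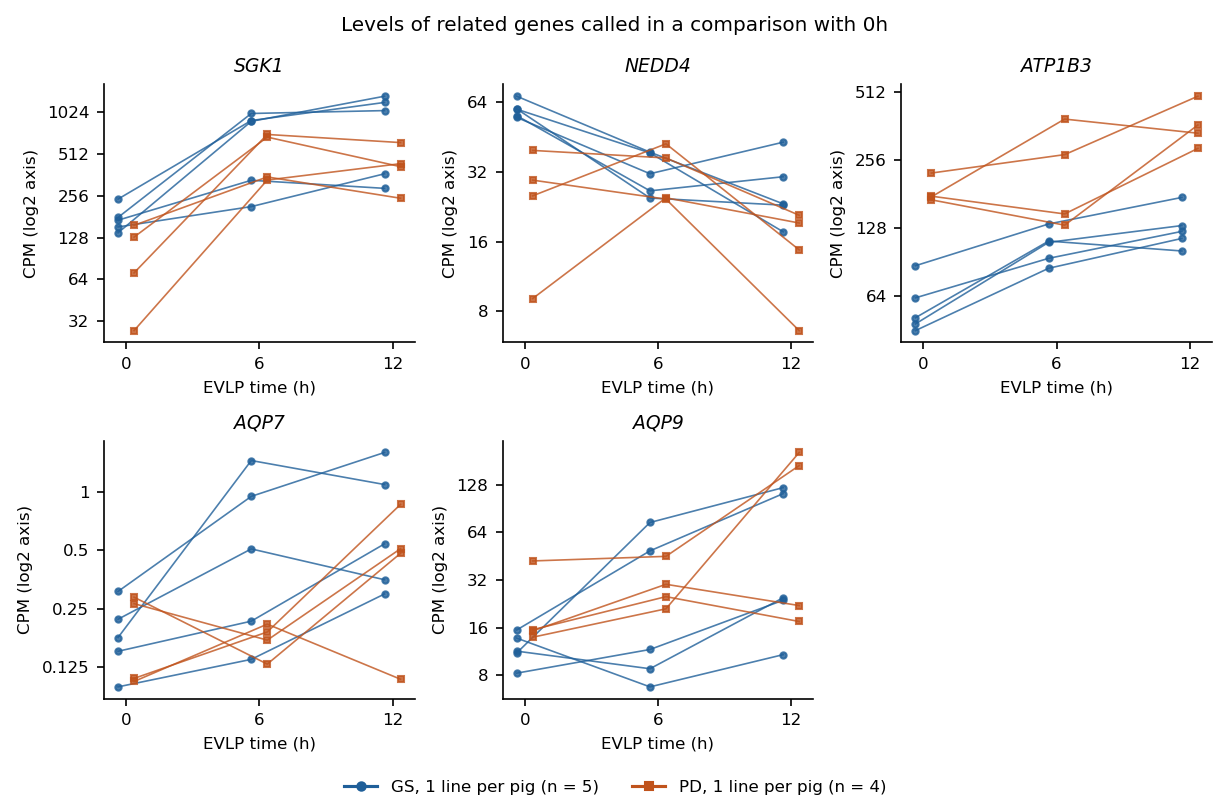
Levels in CPM (log2 axis) of SGK1, NEDD4, ATP1B3, AQP7 and AQP9, with 1 line per pig and the groups set slightly apart on the time axis. Each of these related genes was called in at least 1 comparison with 0h with all libraries. SLC9A2, called in GS at 12h, is not drawn. SGK1 goes from 138 to 242 CPM at 0h to 289 to 1324 CPM at 12h in GS and NEDD4 from 55.1 to 68.1 CPM to 17.6 to 43.1 CPM, while the GS pigs part at 12h for SGK1 (289 and 367 CPM in pigs 9 and 17, 1044 to 1324 CPM in the others) and for AQP9 (113 and 123 CPM against 10.8 to 24.7 CPM) and AQP7, which is also the split between shallower and deeper libraries.

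The count of members called stayed close to the share of all genes called. In GS 0 of 8 members were called at 6h, where 11.1% of all tested genes were, and 1 of 8 (SCNN1A) at 12h, where 15.7% were. In PD 0 of 8 were called at 6h, where 0.142% of genes were, and 1 of 8 (SCNN1A) at 12h, where 5.98% were. At an unadjusted p under 0.05, edgeR found 3 members in GS at 6h and 0 in PD at 6h, where 41.2% and 9.41% of all genes had one, and DESeq2 called 0 members in both, where it called 8.37% and 1.54% of all genes. By the p threshold alone 1 of 8 members passed in GS at 6h and 2 of 8 at 12h, where 28.5% and 38.4% of all genes did. Without the 12h library of PD pig 2, 3 of 8 members were called in PD at 12h, but so were 26.2% of all tested genes. Without the 0h library of PD pig 4, edgeR called 0 of 8 in PD at 12h, where 2.9% of all genes were called. The median log2 fold change of the 8 members at 12h was 0.082 in GS and 0.22 in PD, against -0.076 and -0.048 over all genes tested. Without the PD library that stands apart the PD medians were 0.12 for the members and -0.083 for all genes. Between 6h and 12h edgeR and DESeq2 called 0 members in either group, where edgeR called 0% of all genes and DESeq2 0.0216% in GS and 0.775% in PD. At an unadjusted p under 0.05 there were 2 members in GS (SCNN1A at 0.33 and ATP1B1 at 0.58) and 1 in PD (SCNN1A at 0.85), with 4.74% and 10% of all genes.

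Whether dialysis altered these changes was asked by comparing the change of each pig between PD and GS. On rlog values the exact two-sided Wilcoxon test, whose smallest possible p here is 0.0159, gave 0 of 8 members an adjusted p under 0.05 at 6h or 12h. The same test gave 0 of 8 an unadjusted p under 0.05, where 6.04% of all genes at 6h and 4.04% at 12h had one, and no gene passed after adjustment. The changes of the groups were free of overlap for 0 of 8 members at either time, as against 3.17% of all genes at 6h and 2.23% at 12h. An adjusted p under 0.05 would need far larger shares of genes at the smallest p. The adjusted Wilcoxon result therefore decides nothing about a member. Without PD pig 2 the smallest p of the exact test is 0.0357, and 2 of 8 members reached it at 12h, AQP4 (higher in PD by 1.09 on the rlog scale) and AQP5 (-0.63), each with an adjusted p of 0.213, where 16.7% of all genes had an unadjusted p under 0.05 and none passed after adjustment. The same limit of the adjusted Wilcoxon test holds there. The SCNN1A difference at 12h was 0.13 on the rlog scale, and 0.26 without PD pig 2. The edgeR interaction of group and time, with all pigs, also called 0 members, where it called 0 of 17884 genes at either time. In that fit the PD change of SCNN1A at 12h exceeded the GS change by 0.28 on the log2 scale (SE 0.32, edgeR adjusted p = 0.943), and at 6h it differed by -0.22 (SE 0.32, edgeR adjusted p = 0.879). Differences of this size cannot be told from 0 with these pigs, and larger ones of either sign are within the error. For AQP5 the difference was -0.73 at 6h (SE 0.42, edgeR adjusted p = 0.783) and for AQP4 1.05 at 12h (SE 0.71, edgeR adjusted p = 0.921).

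The groups differed before perfusion. At 0h, SCNN1A was lower in PD than in GS by -0.86 on the log2 scale (SE 0.23, edgeR adjusted p = 0.0103), with no overlap, but less than 2-fold. AQP5 was higher in PD by 1.15 (SE 0.27, edgeR adjusted p = 0.00558), also without overlap, and was called. It was the 1 of 8 members called at 0h, where 29.1% of all tested genes were. The share of all genes whose levels lie without overlap between groups or times was not computed. Without PD pig 5, which held the highest AQP5 level, the difference was 0.87 (edgeR adjusted p = 0.0231) and fell short of 2-fold. At 6h SCNN1A was again lower in PD without overlap, by -0.98 (SE 0.33, edgeR adjusted p = 0.0431), and at 12h by -0.45 (SE 0.34, edgeR adjusted p = 0.368) with overlap, or by -0.22 without PD pig 2 (edgeR adjusted p = 0.562). No member was called at 6h or 12h by edgeR or DESeq2, where edgeR called 21.1% and 19.3% of all genes; at an unadjusted p under 0.05 there was 1 member at 6h (SCNN1A) and 0 at 12h, where 39% and 35.1% of all genes had one, and DESeq2 called 15.8% and 16.8% of all genes. AQP4 at 12h differed by 0.88 with all pigs (edgeR adjusted p = 0.266). It was called once PD pig 2 was left out (1.26, edgeR adjusted p = 0.0105), where 25.4% of all genes were called. Depth, with no overlap, the ribosomal RNA share (0.0207 to 0.0684% in GS and 0.0886 to 2.12% in PD) and summed erythrocyte markers (4.71 to 13.4 CPM in GS and 62.1 to 240 CPM in PD at 0h) moved with these differences. So did the sums of neutrophil markers (169 to 404 and 661 to 1285 CPM), ciliated markers (190 to 239 and 271 to 391 CPM), endothelial markers (2040 to 2831 and 1311 to 1930 CPM) and alveolar type 2 markers, higher in PD at 0h as given above. Some of these lists were split at 0h. Of 5 neutrophil markers 3 were called higher in PD and 1 lower. Of 7 endothelial markers 1 was called higher and 2 lower (-1.69 to 1.67). Summed alveolar type 1 markers overlapped at 0h (2009 to 2457 CPM in GS and 1052 to 2449 CPM in PD), with a median log2 difference of -0.36. The part of all these in the differences was not tested.

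Cell markers were read beside the changes of the members, since in a bulk biopsy more cells of a type and more RNA per cell cannot be told apart. Of 6 alveolar type 1 markers tested, PDPN was the only one called in GS at 6h and 12h (1.24 and 1.42) and in PD at 12h (1.74), and the summed level of the list was 2009 to 2457 CPM at 0h and 2022 to 2658 CPM at 12h in GS. In PD the sum was 1052 to 2449 CPM at 0h and 2047 to 3110 CPM at 12h, or 2047 to 2696 CPM at 12h without pig 2. Of 7 alveolar type 2 markers tested, none was called at 12h in either group with all libraries and SLC34A2 was called lower in GS at 6h (-1.14). Their summed level in GS was 7894 to 10562 CPM at 0h and 7057 to 16174 CPM at 12h. In PD it was 27167 to 79001 CPM at 0h and 17932 to 26636 CPM at 12h in pigs 3, 4 and 5, and without the 12h library of pig 2 ABCA3 (-2.05, edgeR adjusted p = 0.0290) and SLC34A2 (-1.85, edgeR adjusted p = 0.0229) were called lower. Of the airway markers, 2 of 6 ciliated, 2 of 6 secretory and 2 of 3 basal ones were called in GS at 12h, all lower, where 15.7% of all genes were called; the secretory list ran from -3.05 to 0.63. In PD at 12h none of the airway markers was called with all libraries. Without the library of pig 2, which held 558 CPM of ciliated markers against 128 to 215 CPM in the others, 2 of 6 ciliated markers were called lower, DNAI1 (-1.39, edgeR adjusted p = 0.0252) and TPPP3 (-1.29, edgeR adjusted p = 0.0184). These counts of 2 of 7 type 2 and 2 of 6 ciliated markers stand beside 26.2% of all genes called in that fit. Endothelial markers, which bear on AQP1, were called in GS for 1 of 7 at 6h and none at 12h, and in PD for 0 of 7 in either fit, beside 11.1% and 15.7% of all genes in GS and 0.142%, 5.98% and, without the 12h library of pig 2, 26.2% in PD. PDPN in PD at 12h was 1.72 without that library (edgeR adjusted p = 0.00923). The part of these shifts in the values of the members was not tested.

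The genes whose changes ran closest to SCNN1A over the 18 changes (9 pigs at 6h and 12h) were ADIPOR2, an adiponectin receptor, and SH3RF1, a scaffold protein. The root mean square distance of their log2 changes from those of SCNN1A was 0.300 and 0.304, where the median over 11887 genes was 1.38.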

How the data were processed

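Stranded mRNA libraries were made from the total RNA of 27 pig lung biopsies. Reads on each gene were counted by the authors, and the deposited counts are whole numbers, not normalized, on Sscrofa11.1 genes. The submitters' processing notes name bcl2fastq 2.2.18.12, cutadapt 1.15, TopHat2 2.0.14, featureCounts of Subread 1.6.0 and DESeq2 1.18.1. The strand counted and the treatment of reads with several matches are not given in the sources used here, so antisense reads and reads of close paralogs may enter a count. Frozen biopsies and biopsies in RNAlater were extracted with different kits, and which library had which is not given in the labels.

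Each group was fitted by itself with edgeR 4.0.16 (R 4.3.3, limma 3.58.1): filterByExpr by group and time, TMM, robust quasi-likelihood test, two-sided, with the pig as a replicate block, because the biopsies come from the same animals (after removal of group means, libraries of 1 pig had a mean r of 0.560 with each other in GS and 0.0816 in PD). Genes tested were 18594 in GS and 15545 in PD. SE is the log2 fold change divided by the root of the F statistic. CPM are TMM-scaled over all libraries. Changes were compared between groups by Wilcoxon tests on rlog values (DESeq2 1.42.0; 17884 genes) and by an edgeR interaction, and levels by edgeR at each time. The study's own tool, DESeq2, served as an alternative. Scripts were tested on simulated data. The precision set by depth is that of at least 68 counts per member and library.

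The members, the lists of related genes and markers and the motifs were chosen with earlier results of these data known. 1 gene of the sodium pump list is not reported here and was left out of its counts. Named were all members, up to 4 genes per list that were called against 0h, and the 2 genes most like a called member; other names are said to be chosen after their values were seen. Gene names came from the table for 16719 genes, by Ensembl identifier for 782 and by NCBI number for 573. The alternatives were DESeq2, its size factors in edgeR, no replicate block, leaving low counts unfiltered, all libraries in one fit, no fold threshold, log2 CPM (prior count 2) for rlog, and each pig left out; leaving out the 12h library of PD pig 2 or the 0h library of PD pig 4 was added after seeing the data. Levels are not compared between genes, since transcript lengths were not used.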

Additional observations from a re-analysis of the deposited data

Results flagged for a closer look

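Of 54 group and time levels of the 9 genes, 3 held a sample whose distance from the rest of its group passed Dixon's 95% criterion, and chance alone passes about 1 in 20. AQP1 in PD pig 4 was 132 CPM at 0h, where the other 3 PD pigs had 274 to 289 CPM. The same pig had 222 CPM of AQP1 at 12h, where the others had 294 to 303 CPM. AQP4 in PD pig 2 was 16.7 CPM at 12h, where the others had 134 to 187 CPM; this is the library that stands apart from all other PD libraries.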

How the results depend on the processing

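Of 658 values recomputed under an alternative, 609 kept their direction and their side of the threshold. SCNN1A kept its direction against 0h at 12h in GS and PD under every alternative run. It was called in GS at 12h under all of them, and in PD under all except leaving out pig 3, 4 or 5 or the 0h library of pig 4 (1.46). The number of the 8 members called in PD at 12h was 1, where 5.98% of all genes were called. It was 2 with all 27 libraries in one fit (ATP1B1 added, 1.04), where 18.5% of all genes were called. It was 3 without the 12h library of PD pig 2 (26.2% of all genes) and 0 without the 0h library of PD pig 4 (2.9%). With a pig left out it was 0 to 3, where 0% (without pig 3 or pig 5) to 24.4% (without pig 2) of all genes were called. In GS at 12h the number of members called was 1, 2 without the fold threshold, and 1 to 2 with a pig left out. In GS at 6h it was 0, and 1 without the fold threshold. Of all genes in GS, 38.4% at 12h and 28.5% at 6h were called without the fold threshold, and 11.6 to 18.8% at 12h with a pig left out. For levels in PD against GS the number of members called was 1 at 0h (2 without the fold threshold, 0 to 1 with a pig left out), 0 at 6h (1 without the fold threshold, 1 without the filter on low counts, 0 to 1 with a pig left out) and 0 at 12h (0 to 1 with a pig left out). Of all genes, 40.6% at 0h and 24.3% at 6h were called without the fold threshold, and 12.8% at 6h without the filter. With a pig left out the shares of all genes were 26.8 to 29.5% at 0h, 9.61 to 24.4% at 6h and 12.5 to 25.4% at 12h. Without the low-count filter SCNN1A at 6h was lower in PD by -1.04, and without GS pig 17 or PD pig 4 by -1.03 or -1.19, each then called. With any other pig left out the SCNN1A difference at 6h was -1.06 to -0.71 and no longer passed the p threshold (edgeR adjusted p = 0.0580 to 0.0876). With no replicate block the number of members called was the same in every comparison, but ATP1B1 in GS at 12h had an edgeR adjusted p of 0.0562 (0.0546 with all libraries in one fit). Over all genes, calls without the replicate block went from 2057 to 1123 in GS at 6h, from 2911 to 1896 in GS at 12h, from 22 to 100 in PD at 6h and from 930 to 1460 in PD at 12h. DESeq2 called 408 genes in PD at 6h and 2518 at 12h, no filter on low counts gave 103 in PD at 6h, and the single fit of all libraries gave 1219 and 2047 in GS and 479 and 3300 in PD. Members that changed sign in a comparison were not called in it. With each pig left out in turn, GS values ranged from -0.32 to 0.28 for CFTR and from -0.011 to 0.24 for AQP3 at 6h, and from -0.36 to 0.026 for CFTR and from -0.18 to 0.0096 for SCNN1B at 12h. PD values ranged from -0.31 to 0.37 for AQP3 and from -0.37 to 0.35 for SCNN1B at 6h, and from -0.16 to 0.54 for AQP3, from -0.47 to 0.77 for SCNN1B and from -0.74 to 0.039 for AQP5 at 12h. Without only the 12h library of PD pig 2, SCNN1B was at -0.034 at 6h and -0.52 at 12h, and SCNN1G at -0.0043 at 12h; without only the 0h library of PD pig 4, AQP3 was at -0.28 at 6h and -0.15 at 12h. On the rlog scale the PD minus GS difference of the changes ranged from -0.015 to 0.26 for SCNN1A at 12h and from -0.075 to 0.71 for AQP4 at 6h. The cause of these shifts was not tested. SCNN1G, with as few as 68 counts in a library, is the member whose precision is most limited by depth.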
